A study of Camelina sativa with 41 samples.

Results

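The regions described here are clusters of binding sites for 1 transcription factor: stretches of a Camelina sativa chromosome in which the same factor had 3 or more peak summits, each at most 500 bp from the next. They were chosen by the summit positions alone, in the 12 peak lists with at least 2000 peaks. Chaining the 711940 summits of these lists gave 636541 chains, of which 5743 were clusters. A further 62880 chains were pairs of summits and 567918 were lone summits. The 20 lists analysed held 717159 summits in all.

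Camelina sativa, a relative of Arabidopsis grown for its seed oil, carries 3 sets of similar chromosomes, and the cultivar was Suneson. The series pairs messenger RNA of developing seeds, which was not used here, with DNA affinity purification sequencing (DAP-seq), in which a tagged factor made outside the plant captures fragments of genomic DNA that are then sequenced. All factors met the same kind of DNA, per the labels: pooled leaf DNA of mature plants, sheared to 200 to 400 bp and copied by 11 extra PCR cycles, which leaves it without methylation. The series title names the regulation of lipid metabolism as its subject, and the factors are known here only by gene ID.

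Binding sites of 1 factor that lie close together are called homotypic clusters. They are known from plant and animal regulatory DNA, where neighbouring sites can be bound at the same time and can give a factor a longer stay on a stretch of DNA. Because DAP-seq uses naked fragments, it records where a protein can bind in the absence of chromatin, other plant proteins and methylation. It does not show whether a cluster is occupied in a cell. A summit is the single position the authors gave at the centre of a peak, and the peaks were 201 bp wide, so summits closer than that have overlapping peaks. Many gaps described below are shorter than a DNA fragment, and the part that fragment length and the splitting of neighbouring events by the peak caller have in the number and signal of close summits was not tested.

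Each factor had 1 list, so none of the values below has a replicate check and no test was made. The series text names duplicates for DAP-seq and the sources do not say whether they were pooled. Coordinates are those of the authors' lists, and no source used here names their genome build. Genes near the clusters were not analysed here.

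Clusters were mostly short runs. Of the 5743 clusters, 4961 (86.4%) had 3 summits, 596 had 4, 135 had 5, 39 had 6, 10 had 7 and 2 had 8. They held 18262 summits, 2.57% of all, joined by 12519 gaps. The number per list ran from 3 for Csa11g072230 to 1725 for Csa04g012470. The lists of Csa04g012470, Csa06g004330, Csa13g019570 and Csa02g073390 together held 4547 clusters, 79.2% of the total. Clusters were found on all 20 chromosomes in the 7 longest lists, from Csa02g073390 to Csa06g051300.

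A long list has close summits even when they are placed at random, so each count was set beside the number expected if the same number of summits per chromosome fell anywhere along it with equal chance. The chromosomes spanned 20.9 to 49.7 Mb and 608.5 Mb together, counted to their last summit in any list. In all, 5743 clusters were observed and 3713 were expected. In 11 of the 12 lists the observed number was above the expected one, and in the list of Csa02g073390 it was below. Real summits also gather in parts of a chromosome, and with the density taken in windows of 100 kb or 1 Mb it was again 11 of 12.

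**Figure D1:**
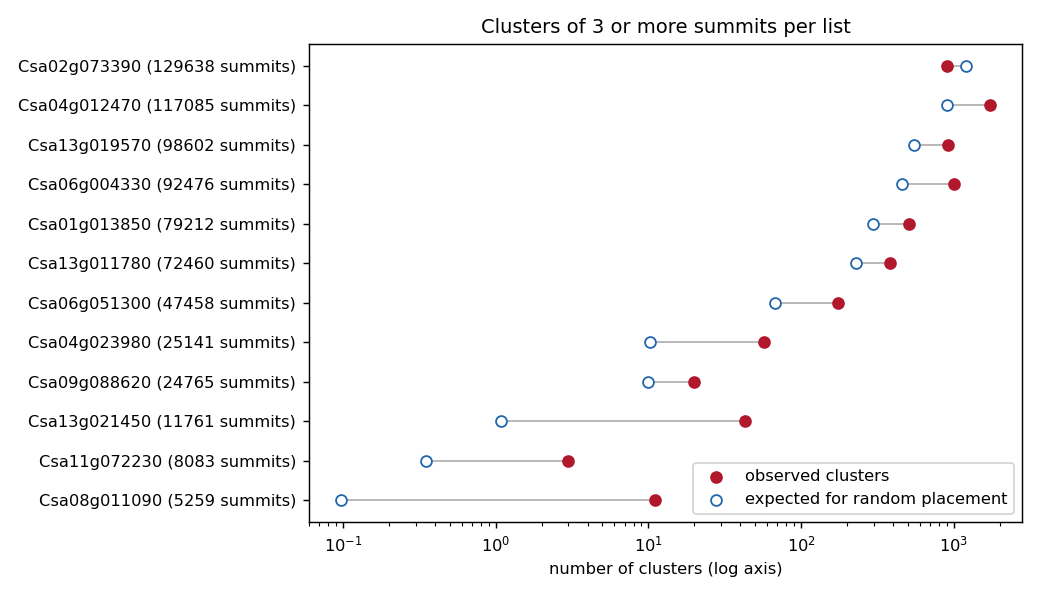
Number of clusters per list on a log axis, with lists ordered from the most summits to the fewest. Filled points are the observed clusters and open points the number expected for summits placed at random; the filled point lies to the right in 11 of 12 lists and to the left for Csa02g073390.

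The excess was largest relative to chance placement in 2 short lists. Csa08g011090 had 11 clusters among 5259 summits, against 0.0975 expected, a ratio of 113. Its exact Poisson 95% interval, which covers counting error only, was 56.3 to 202. Csa13g021450 had 43 clusters among 11761 summits, against 1.08 expected, a ratio of 39.9 (28.9 to 53.8). With the density taken in windows of 100 kb the ratios were 48.8 for Csa08g011090 and 21.0 for Csa13g021450, lower than with equal chance along the whole chromosome. Csa11g072230, with 8083 summits, had 3 clusters against 0.352 expected, and its interval of 1.76 to 24.9 is wide.

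The lists of middle length differed from each other. Csa04g023980 had 57 clusters among 25141 summits, against 10.3 expected, a ratio of 5.53 (4.19 to 7.17). Csa09g088620 had nearly the same number of summits, 24765, but 20 clusters against 9.90 expected, a ratio of 2.02 (1.23 to 3.12). These intervals cover counting error within 1 list each, so they cannot show whether the 2 factors differ. Csa06g051300 had 175 clusters among 47458 summits, against 67.1 expected, a ratio of 2.61 (2.24 to 3.03).

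Among the long lists the ratios of Csa06g004330 and Csa04g012470 were the highest. Csa06g004330 had 1009 clusters against 460.1 expected, a ratio of 2.19 (2.06 to 2.33). Csa04g012470 had 1725 against 896 expected, a ratio of 1.92 (1.84 to 2.02). The ratios of Csa01g013850, Csa13g011780 and Csa13g019570 lay between 1.65 and 1.72, with 507, 380 and 912 clusters. The gap between these groups was wider under stricter rules: with at least 4 summits the ratio was 4.77 for Csa06g004330 and 4.25 for Csa04g012470, against 1.77 to 2.41 for the other 3. In the 50% of each list with higher signal it was 5.92 for Csa06g004330 and 5.74 for Csa04g012470, against at most 2.94 for the other 3. With gaps of at most 1000 bp, a looser rule, the groups were not apart. There the ratio was 1.89 for Csa06g004330 and 1.76 for Csa04g012470. It was 1.93 for Csa01g013850, 2.04 for Csa13g011780 and 1.76 for Csa13g019570. Csa02g073390, the longest list with 129638 summits, had 901 clusters against 1192 expected, a ratio of 0.756 (0.707 to 0.807).

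The share of a list's summits that lay in clusters ran from 0.111% for Csa11g072230 to 4.85% for Csa04g012470. Across the 12 lists this share was higher in longer lists (Pearson's r 0.83, Spearman's rho 0.85) and the observed-to-expected ratio was lower (r −0.52, rho −0.85). Both are descriptions over 12 lists, and the expected number itself depends on list length. When every list was cut to its 5000 highest signals, lists became comparable in number, and 112 clusters were left for Csa04g012470, 23 for Csa13g021450, 17 for Csa06g004330 and 10 for Csa08g011090. Csa02g073390 then had 2, and Csa06g051300, Csa09g088620 and Csa11g072230 had 0. The cut kept nearly all of the 5259 summits of Csa08g011090 but a small part of the 117085 of Csa04g012470, so it compares unlike parts of the lists. At this equal length clusters were most frequent for Csa04g012470, although its ratio over the whole list was 1.92.

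Clusters of 4 or more summits numbered 782, and Csa04g012470 had 350 and Csa06g004330 161 of them. They made up 20.3% of the clusters of Csa04g012470, 16.0% of those of Csa06g004330 and 14.0% of those of Csa13g021450. In the list of Csa08g011090 they were 4 of 11. For the other lists the share was between 0% (Csa11g072230, 3 clusters) and 10.4% (Csa02g073390). All clusters of 7 or 8 summits belonged to Csa04g012470 (8 of 7 and 2 of 8) or Csa06g004330 (2 of 7).

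The cluster with the most summits lay at chr4:1873665-1875040, where Csa04g012470 had 8 summits within 1375 bp. From the first summit on, their signals were 184.1, 39.9, 76.8, 247.7, 99.3, 172.6, 170.2 and 63.3, in the authors' signal per peak, which has no stated unit. The gaps between them were 105, 108, 239, 255, 123, 231 and 314 bp. Strong and weak summits lay side by side along it, and the weakest was below the median of 57.0 at lone summits of that factor. The other cluster of 8 summits, at chr2:10821616-10823183, spanned 1567 bp with a median signal of 90.5. Of the 10 clusters of 7 summits, the 3 with the highest summed signal were also of Csa04g012470, at chr14:13340664-13342199, chr5:27161748-27163252 and chr4:10661874-10662929, with median signals of 154.8, 226.3 and 157.1.

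Csa06g004330 had its longest run at chr8:14249577-14251065, with 7 summits whose signals were 136.1, 231.8, 200.5, 191.0, 139.5, 102.6 and 55.4. The gaps were 179, 159, 318, 337, 336 and 159 bp. All 7 were above the median of 50.0 at lone summits. In the list of Csa13g021450 the run with the most summits, at chr6:11061584-11062016, packed 5 summits into 432 bp. Its signals were 103.2, 225.7, 194.3, 181.4 and 142.4, against a median of 52.7 at lone summits.

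Not every large cluster was strong. The 6 summits of Csa02g073390 at chr2:25331790-25333712, spread over 1922 bp, had signals of 120.7, 54.3, 54.8, 90.2, 79.0 and 80.0, against a median of 66.0 at lone summits. The 4 summits of Csa09g088620 at chr20:739123-739637 had signals of 59.6, 59.9, 74.0 and 50.5, all below its median of 78.0 at lone summits. Csa13g011780 had 5 summits at chr7:5682450-5683642 in which 3 neighbouring gaps were nearly equal, 321, 321 and 322 bp. Their signals were 154.0, 85.0, 126.6, 77.6 and 97.8. Few clusters were equally spaced: in 20 of the 782 clusters of 4 or more summits every gap was within 10% of the cluster's median gap. How many would be so by chance is not given here.

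The clusters with the highest median signal were all of 3 summits, apart from that of Csa08g011090. Csa04g023980 had such a cluster at chr9:31866267-31866840, whose 3 summits had signals of 626.3, 709.8 and 718.0, against a median of 56.0 at lone summits. Its gaps were 288 and 285 bp, and the summits were close to equal. Csa06g004330 had signals of 74.1, 504.6 and 661.2 at chr3:17686928-17687747, and Csa04g012470 had 144.8, 476.6 and 480.6 at chr2:19469430-19470205. In both, a weaker summit stood beside 2 strong ones.

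Csa01g013850 had signals of 420.0, 573.2 and 194.8 at chr12:10973868-10974670, against a median of 86.0 at lone summits. Csa13g019570 had 276.5, 309.5 and 79.0 at chr19:19278464-19279194, against 84.3, and Csa13g011780 had 117.4, 259.2 and 267.3 at chr11:8092600-8093218, against 92.9. Csa06g051300 had 201.7, 106.3 and 365.0 at chr9:22625416-22626058, against 65.0. Csa02g073390 had 241.3, 188.8 and 161.9 at chr20:16431661-16432311, against 66.0.

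Of the 3 clusters of Csa11g072230, the one with the highest median, at chr2:927667-928501, had signals of 27.9, 33.1 and 45.0, against a median of 35.7 at lone summits. The others lay at chr7:18439478-18440289, with gaps of 406 and 405 bp, and at chr20:27793894-27794803, with gaps of 421 and 488 bp. Their median signals were both 32.3. Csa09g088620 reached 223.9, 184.4 and 61.7 at chr8:19491506-19491981, against 78.0 at lone summits.

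The 11 clusters of Csa08g011090 can be given singly. Besides the 5 summits at chr11:20664753-20665363, with signals of 37.3, 60.7, 73.7, 53.0 and 107.2 and gaps of 140 to 175 bp, there were 3 of 4 summits, at chr6:16782073-16782859, chr7:22130170-22130974 and chr13:314610-315625, with median signals of 68.7, 32.0 and 257.4. The other 7 had 3 summits and median signals of 24.2 to 72.1. At chr20:14158929-14159251 both gaps were 161 bp. The median signal of 9 of the 11 clusters was above the 33.0 of lone summits, and those at chr7:22130170-22130974 and chr13:18163337-18163603 were below it.

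**Figure D2:**
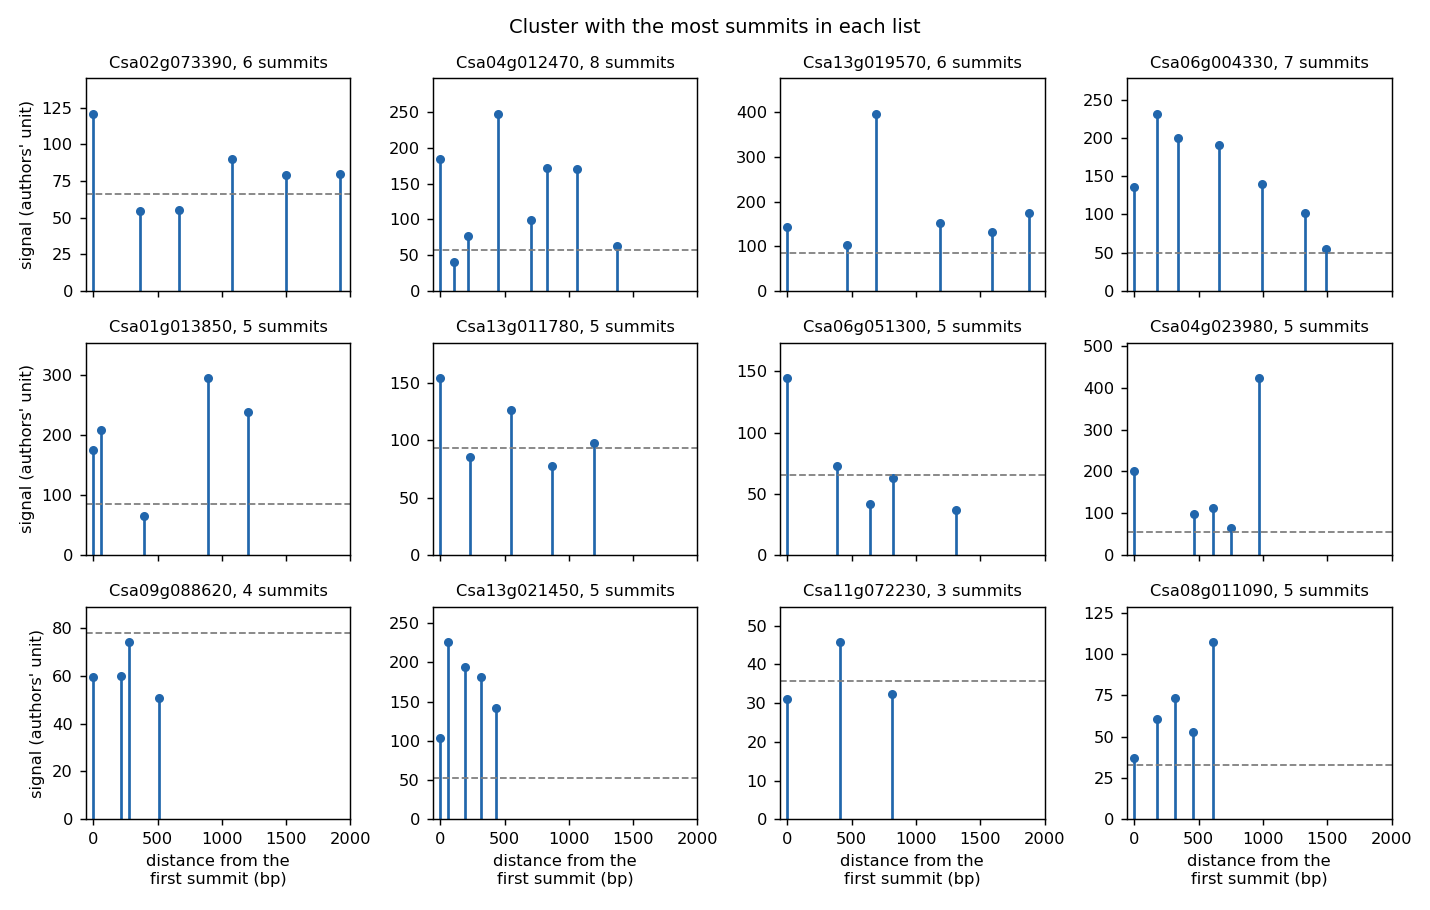
Signal of each summit (authors' unit) against its distance in bp from the first summit, for the cluster with the most summits in each list; the dashed line is the list's median signal at lone summits. The 8-summit cluster of Csa04g012470 mixes strong and weak summits, and all 4 summits of the Csa09g088620 cluster lie under the line.

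Cluster length differed between factors in the same way as the gaps. The median length from first to last summit was 458 bp for Csa13g021450, 467 bp for Csa08g011090 and 476 bp for Csa04g023980. It was 761 bp for Csa02g073390 and 834 bp for the 3 clusters of Csa11g072230, and the other 7 lists lay between 540 and 661.5 bp. The longest cluster of any list was that of 1922 bp described above. The median gap inside clusters was 177 bp for Csa08g011090, 188 bp for Csa13g021450, 218 bp for Csa04g023980 and 236 bp for Csa06g004330. It was 255 to 323 bp in the 6 lists that followed, 380 bp for Csa02g073390 and 413.5 bp for Csa11g072230. Random placement puts 50.1% to 51.3% of all gaps of up to 500 bp, in pairs or clusters, at 250 bp or less. The observed share was 59.3% for Csa06g004330 and Csa13g021450, 58.0% for Csa08g011090 and 55.2% for Csa04g023980. In the other lists it was lower than for random placement, from 18.4% (Csa02g073390) to 47.0% (Csa04g012470).

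Gaps of 100 to 200 bp stood out in several lists when neighbouring summits were counted in bands of 100 bp, linked or not, and divided by the number expected for random placement. In this band Csa08g011090 had 63 gaps, against 4.54 expected, a ratio of 13.9. Csa13g021450 had 179 gaps, against 22.7 expected, a ratio of 7.90. Csa04g023980 had a ratio of 3.15 and Csa06g004330, with 4229 gaps against 1375 expected, of 3.08. In these 4 lists the ratio was higher in this band than in any other up to 1000 bp. Csa04g012470 also had its highest ratio there, but at 1.89 it was little above the 1.65 and 1.66 of the following bands.

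Csa02g073390 showed the opposite pattern. It had 72 gaps of up to 100 bp, against 2735 expected, a ratio of 0.0263, and 1347 gaps of 100 to 200 bp, against 2677 expected, a ratio of 0.503. Its ratio was 1.15 at 200 to 300 bp, 1.84 at 300 to 400 bp, 2.13 at 400 to 500 bp and 2.09 at 500 to 600 bp. Of all its gaps of up to 500 bp, 18.4% were at most 250 bp, where random placement gives 51.3%. Its summits were thus short of close neighbours and had more neighbours than chance at 300 to 600 bp. The shortest gap inside its clusters was 102 bp.

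Other lists had a shortage only in the first band. From 0 to 100 bp the ratio was 0.335 for Csa01g013850, 0.338 for Csa13g011780, 0.375 for Csa13g019570, 0.476 for Csa09g088620, 0.544 for Csa06g051300 and 0.724 for Csa04g012470. For Csa11g072230 it was 0.0932, from 1 gap, and its highest ratio was 6.47 at 500 to 600 bp, just outside the linking distance. The first band was above 1 for Csa06g004330 (1.15), Csa04g023980 (2.04), Csa08g011090 (3.08) and Csa13g021450 (3.57). Very close summits did occur: the shortest gap in a cluster was 5 bp for Csa13g019570, which had a cluster of 3 summits within 10 bp, and 6 bp for Csa06g004330 and Csa13g011780.

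**Figure D3:**
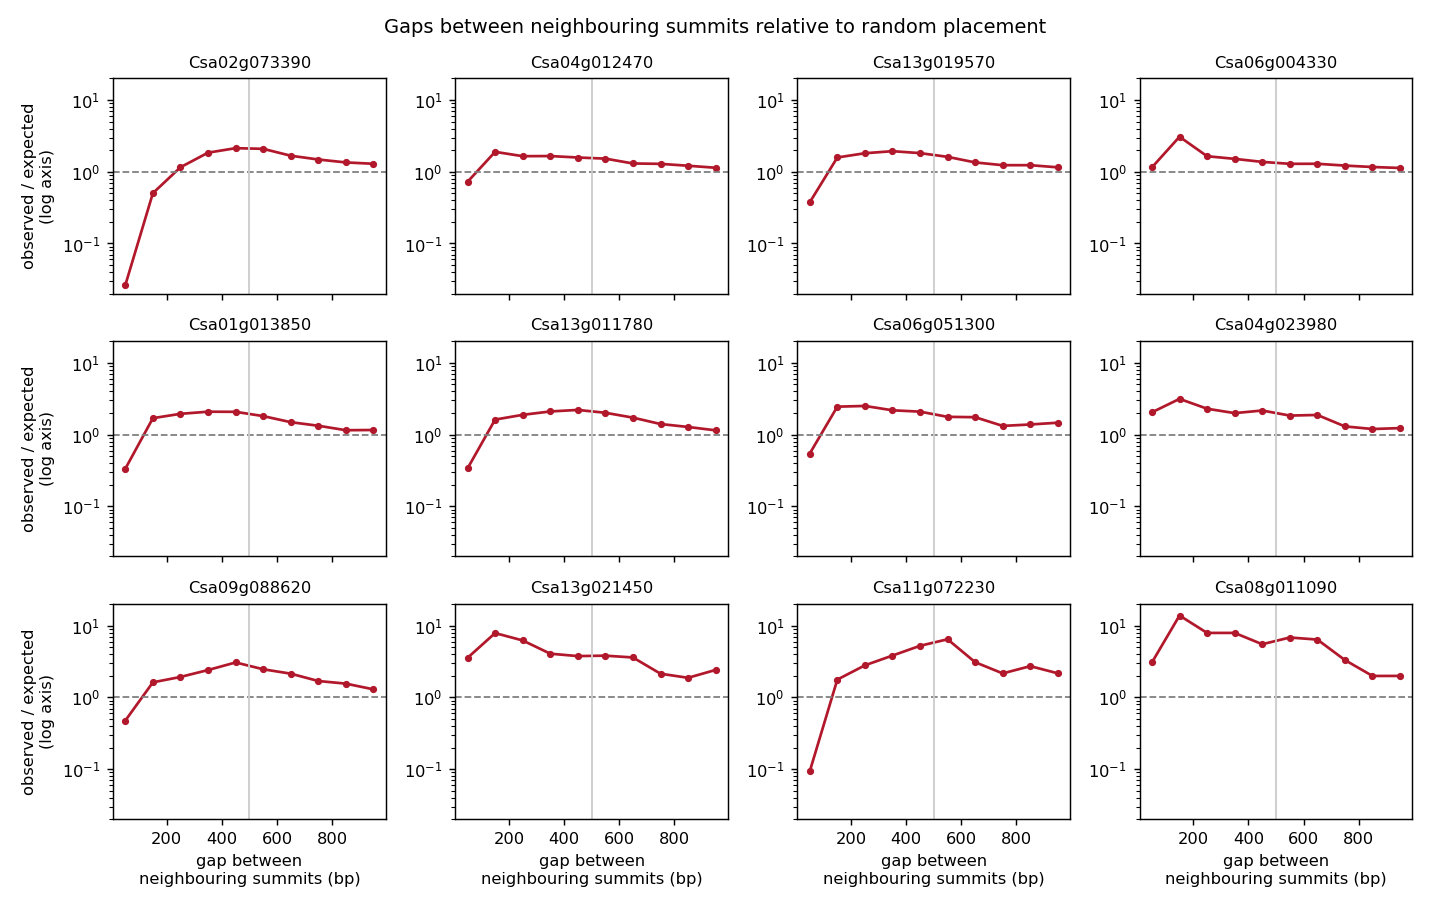
Observed number of gaps between neighbouring summits divided by the number expected for random placement (log axis), in bands of 100 bp up to 1000 bp, 1 panel per list; the dashed line marks 1 and the grey line the linking distance of 500 bp. Csa08g011090, Csa13g021450, Csa04g023980 and Csa06g004330 peak at 100 to 200 bp, while Csa02g073390 is far under 1 below 200 bp.

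Single gap lengths also recurred. Gaps of exactly 196 bp were the commonest of up to 500 bp in the lists of both Csa01g013850 and Csa13g019570. Csa13g019570 had 64 of them, against a mean of 26.7 for each of the gap lengths within 20 bp of it. Csa01g013850 had 44, against a mean of 18.5. In 23 cases the pair of summits lay at the same place in both lists, to within 5 bp. The 64 gaps of Csa13g019570 were spread over 19 chromosomes.

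The linking distance of 500 bp is a set cut, and some chains lay close to it on either side. In 274 clusters the largest gap was 491 to 500 bp, and 282 chains missed a cluster only because the next gap was 501 to 510 bp. The first count includes clusters that would remain without that gap, while the second leaves out chains that already held a cluster. The counts inside and outside are therefore not alike. In Csa04g012470, the list with the most clusters, 68 clusters lay just inside with a median signal of 65.95, and 68 chains just outside had one of 65.65. The list nearest above the minimum of 2000 peaks was that of Csa08g011090 with 5259, and the nearest below was that of Csa10g008930 with 1778.

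Signal was not used to choose the clusters. It was higher in clusters than at lone summits in 9 of 12 lists, by the medians, but the size of the difference varied from nearly nothing to more than 1.5 times. The median was 85.2 in clusters and 52.7 at lone summits for Csa13g021450, a ratio of 1.62. For Csa06g004330 it was 76.7 in clusters (quartiles 42.4 and 146.5) and 50.0 at lone summits (34.0 and 88.4), a ratio of 1.53. Csa08g011090 had 49.7 in clusters and 33.0 at lone summits, and Csa04g012470 had 84.9 (52.1 and 152.0) in clusters and 57.0 (41.0 and 85.0) at lone summits. The quartile ranges overlapped in every one of these lists.

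A smaller difference was seen for Csa04g023980, with medians of 71.5 in clusters and 56.0 at lone summits, and for Csa13g019570, with 90.9 in clusters and 84.3 at lone summits. In the lists of Csa01g013850, Csa13g011780 and Csa06g051300 the ratio of medians was 1.02 to 1.04. The median was lower in clusters for Csa02g073390 (65.9 in clusters, 66.0 at lone summits), Csa09g088620 (72.4 and 78.0) and Csa11g072230 (32.3 and 35.7). These last 2 lists had only 61 and 9 summits in clusters.

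In 2 lists the signal went up with every step in the number of summits. For Csa04g012470 the median was 57.0 at lone summits, 65.9 in pairs, 76.7 in clusters of 3, 108.7 in clusters of 4 and 155.1 in clusters of 5 or more. For Csa06g004330 it was 50.0, 64.0, 71.2, 91.8 and 115.1 over the same steps. Csa13g021450 had 52.7, 62.2, 73.7, 260.0 and 181.4, the last 2 from 5 clusters and 1 cluster. In the list of Csa13g019570 the medians were 84.3, 88.3, 90.9, 90.5 and 89.8, with little change beyond pairs.

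Clusters were also rich in the strongest peaks of some lists. Of the summits of Csa08g011090 in clusters, 18 of 38 (47.4%) were in the highest 10% of signals of that list, against 8.81% of lone summits. The share was 41.9% in clusters and 8.86% at lone summits for Csa13g021450. It was 28.7% in clusters and 7.59% at lone summits for Csa04g012470, and 21.4% and 8.31% for Csa06g004330. For Csa02g073390 it was 10.4% in clusters and 9.76% at lone summits.

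**Figure D4:**
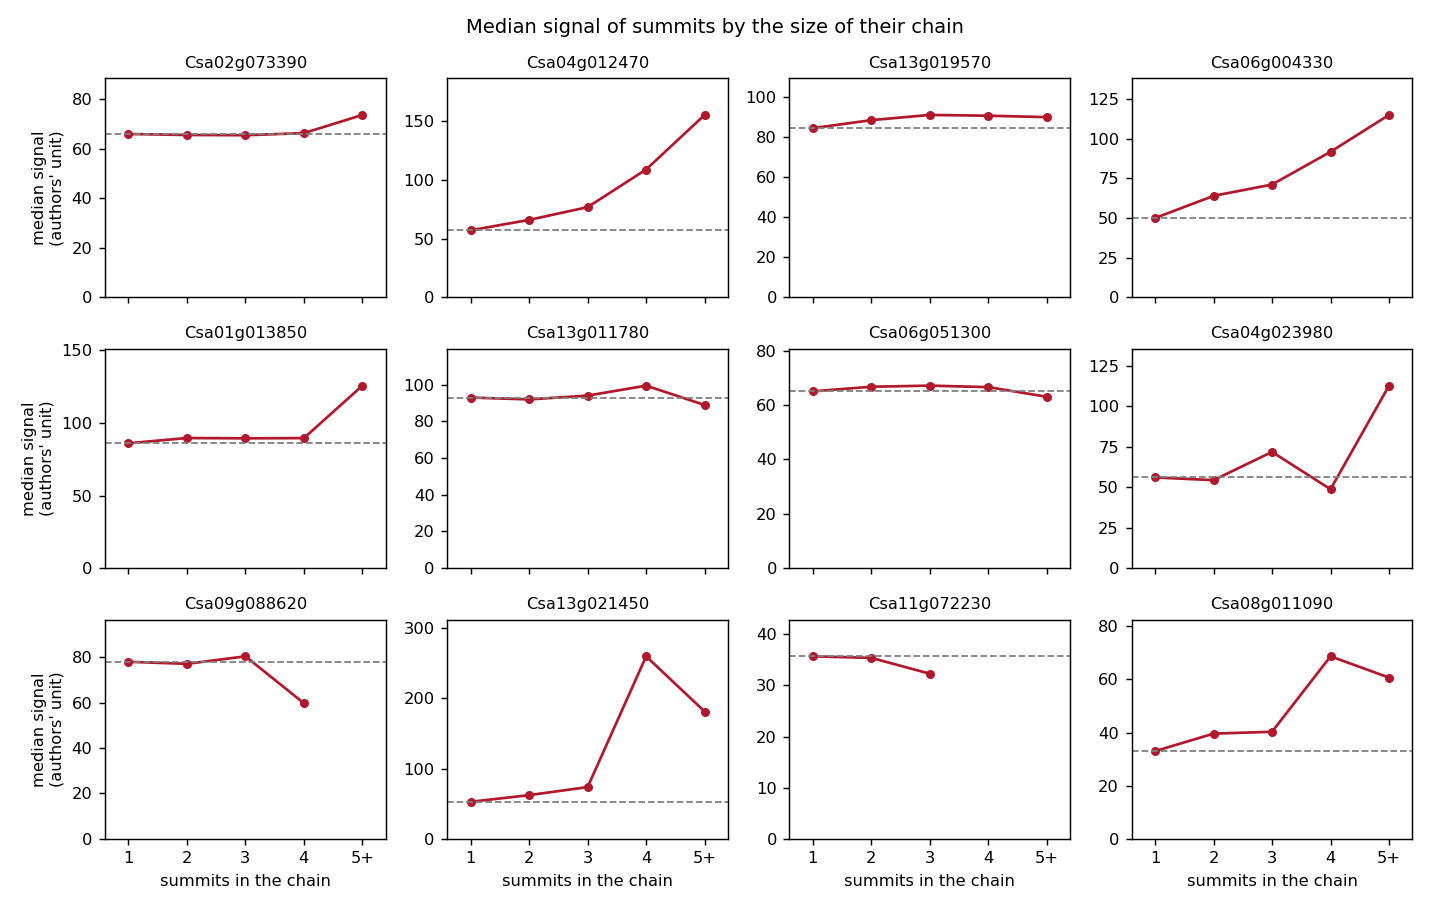
Median signal of summits (authors' unit, axes from 0) by the number of summits in their chain, 1 panel per list; 1 is a lone summit, 5+ stands for 5 or more and the dashed line is the median at lone summits. The medians go up at each step for Csa04g012470 and Csa06g004330 and stay near the line for Csa02g073390, Csa13g019570 and Csa06g051300.

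Summits of 1 cluster were unequal. The median ratio of the strongest to the weakest summit of a cluster was 3.11 for Csa06g004330, 2.90 for Csa04g023980 and 2.35 for Csa04g012470, and 1.46 to 2.13 in the other 9 lists. Such a ratio lies above 1 by construction, and none was taken for sets of lone summits. It therefore cannot show whether signals differ more within clusters than over the whole list. In clusters of 3 the middle summit would be the strongest in 33.3% if position made no difference. It was the strongest in 64.9% of the 37 such clusters of Csa13g021450 (Wilson 95% interval 48.8% to 78.2%), 49.1% of the 169 of Csa06g051300 (41.7% to 56.6%) and 48.6% of the 848 of Csa06g004330 (45.2% to 51.9%). For Csa04g012470 it was 42.8% (40.2% to 45.5%) of 1375. The share was above 33.3% in 10 of 12 lists, but for Csa02g073390, Csa13g011780, Csa04g023980 and Csa11g072230 the interval took in that value, and for Csa01g013850 it began at 33.5%. It was below in 2, with 15.8% of 19 for Csa09g088620 and 28.6% of 7 for Csa08g011090, whose intervals took it in too. These intervals treat clusters as independent, although some of Csa06g004330 repeat the same arrangement, and each factor has a single list. They therefore cannot show whether position made a difference for a factor.

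Spread along the genome was uneven for some factors. Csa04g012470 had 2.83 clusters per Mb over all chromosomes, from 1.73 on chromosome 18 to 3.27 on chromosome 12. Csa06g004330 had 1.66 per Mb, from 1.09 on chromosome 12 to 2.54 on chromosome 18. The highest value of Csa06g004330 was thus on the chromosome where Csa04g012470 had its lowest. Csa02g073390 ranged from 1.21 per Mb on chromosome 9 to 1.89 on chromosome 2.

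Some clusters of Csa06g004330 repeated the same arrangement at distant places. Clusters of 4 or more summits were compared within each list, in either direction, and 2 were called the same layout when they had the same number of summits and every gap matched within 2 bp. This gave 48 matching pairs, made by 26 clusters. There were 11 pairs whose most different gap was off by 3 to 5 bp and 11 off by 6 to 8 bp. Of the 48 pairs, 45 were of Csa06g004330 and came from 20 of its clusters, and the other 3 were of Csa04g012470. No other list had a match among clusters of this size. These layouts were found by looking through the data, so they are a description.

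The layouts of Csa06g004330 were related. In 9 clusters, on 8 chromosomes, the gaps were 145, 99 and 260 bp or differed from these by at most 2 bp. In 5 clusters, on chromosomes 2, 5, 13, 17 and 19, a summit lay about 331 bp before the same 3 gaps, to within 3 bp. In another 4, on chromosomes 1, 13 and 15, the gaps were 330, 244 and 261 bp, which is the 5-summit layout with the summit at 476 bp missing. The last 2, both on chromosome 18, had gaps of 330, 145, 142 and 218 bp, again to within 2 bp.

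The complete layout was present at chr2:12491391-12492229, where the signals of Csa06g004330 were 48.0, 276.8, 249.3, 190.4 and 287.5. At chr19:22689740-22690574 they were 37.0, 108.8, 185.6, 284.7 and 202.9. At chr5:13767017-13767852, read in the opposite direction, they were 84.0, 77.1, 363.3, 195.5 and 256.2. At chr13:23135409-23136243 they were 240.7, 134.8, 390.1, 239.8 and 140.6, and at chr17:29157945-29158776 they were 32.6, 151.1, 145.7, 230.0 and 98.7. The first summit was the weakest or next to weakest in 4 of these 5 places.

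Copies with missing summits were then sought over the whole list, as places with a summit within 3 bp of at least 3 of the 5 positions at 0, 331, 476, 575 and 835 bp. There were 76: 5 with all 5 summits, 19 with 4 and 52 with 3. How many places with only 3 of the 5 would arise by chance in so long a list is not given here. In 1 place, on chromosome 18, 2 of these copies overlapped in opposite directions and shared summits, so that place was counted 2 times. They ran in 39 cases with rising coordinates and in 37 against them, and lay on all 20 chromosomes, with 1 to 8 on each and the most on chromosome 10. The copies took in 75 clusters, 7.43% of those of Csa06g004330, with 296 summits. Their median signal was 143.9, against 71.9 in the other 934 clusters of the list. The 2 sets were not matched for the number of summits per cluster, with which the signal of this factor went up. Without the 75 clusters in copies the observed-to-expected ratio of Csa06g004330 was 2.03, against 2.19 with them.

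Within the copies the median signal differed between the positions. The first position held a summit in 35 copies, with a median signal of 49.0. The position at 331 bp held one in 57 copies (median 122), that at 476 bp in 53 (242), that at 575 bp in 55 (253) and that at 835 bp in 57 (141). By these medians the summits at 476 and 575 bp were the strongest, and the first was close to the median of 50.0 at lone summits. The order was not the same in every copy: among the 5 complete ones the strongest summit was at 476 bp in 2, at 575 bp in 2 and at 835 bp in 1.

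Other factors had summits at set distances from the copies. Csa13g019570 had a summit 1346 to 1366 bp from the first position, beyond the last summit of the layout, in 34 of 76 copies (44.7%). This stretch of 21 bp was picked as the one with the most copies, and the mean over the surroundings was 0.690 summits per 21 bp over all copies together. Csa01g013850 had its summit in the same stretch in 17 copies. Csa13g011780 had one at 191 to 211 bp in 13 copies, between the first summit of Csa06g004330 and the one at 331 bp. Csa02g073390 had one at 515 to 535 bp in 10 copies, between the summits at 476 and 575 bp. What DNA sequence the copies share was not analysed here.

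**Figure D5:**
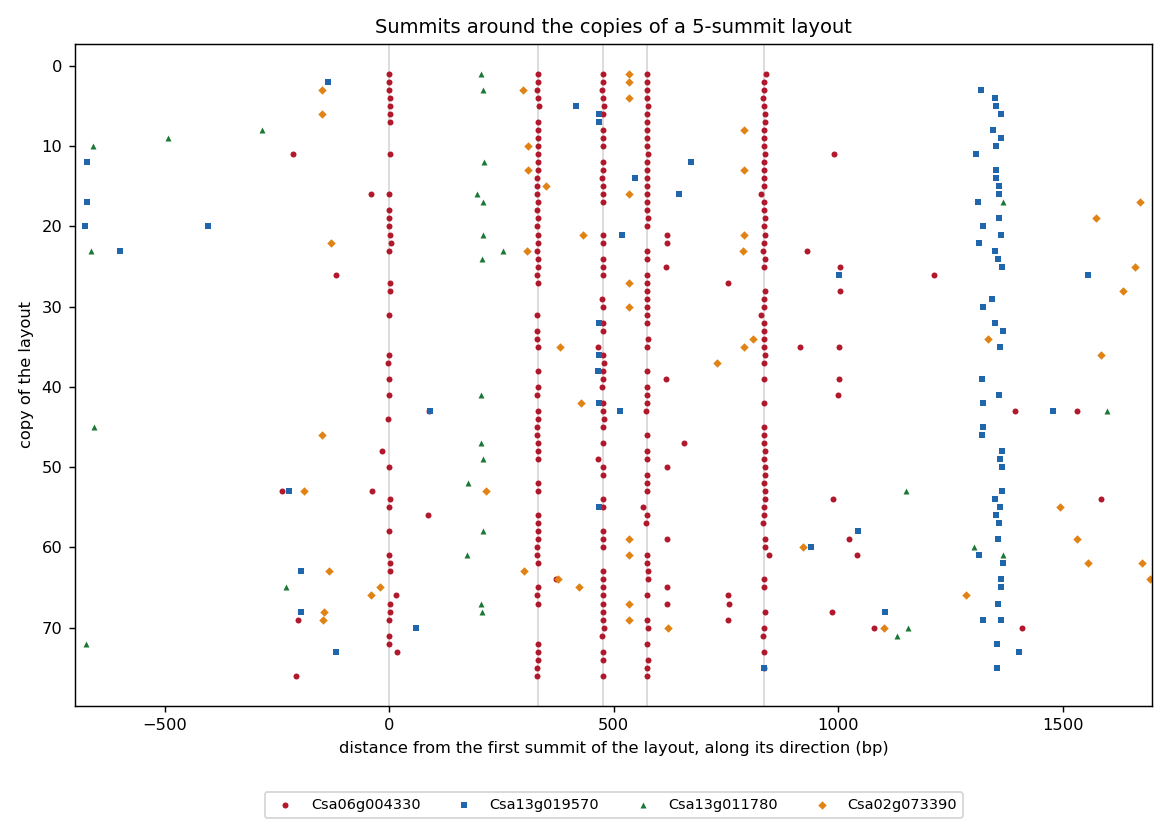
Summits of 4 lists around the 76 copies of the 5-summit layout of Csa06g004330, 1 row per copy, by distance in bp from the first summit along the direction of the layout; grey lines mark the 5 positions. Besides the columns of Csa06g004330, summits of Csa13g019570 line up near 1359 bp, those of Csa13g011780 near 207 bp and those of Csa02g073390 near 535 bp.

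The 3 matches of Csa04g012470 were single pairs. Gaps of 142, 202 and 201 bp on chromosome 1 returned as 142, 201 and 199 bp on chromosome 11, with median signals of 204.6 and 188.7. Gaps of 116, 491 and 384 bp on chromosome 10 returned as 116, 492 and 385 bp on chromosome 12, with 65.5 and 64.7. Gaps of 87, 229 and 111 bp on chromosome 12 returned in reverse on chromosome 15, with 175.3 and 202.0.

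Most clusters did not overlap a cluster of another list. This counts an overlap only where the other factor also had 3 or more linked summits. Within 100 bp, 21.9% (Csa04g012470) to 81.6% (Csa08g011090) of summits in clusters had a summit of another list. At lone summits of these 2 lists the share was 22.8% and 76.2%. When clusters of different lists that overlapped were joined, 5560 regions resulted, of which 5380 held clusters of 1 factor, 177 of 2 and 3 of 3. At chr3:19174882-19175354 clusters of Csa04g012470, Csa08g011090 and Csa13g021450 lay together with 11 summits. At chr13:11557861-11559668 and chr4:16881328-16882522 clusters of Csa01g013850, Csa04g012470 and Csa13g019570 did so, with 11 and 9 summits. Of the regions with clusters of 2 factors, chr11:34537735-34539635, with Csa01g013850 and Csa13g019570, had the most summits, 10. There were 6 with 9 summits, of which 3 were of the same pair, chr6:2663208-2664378 among them. The other 3 were chr6:7658467-7660223, with Csa04g012470 and Csa06g004330, chr11:20664752-20665363, with Csa08g011090 and Csa13g021450, and chr15:734543-735702, with Csa02g073390 and Csa06g004330.

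The largest overlap in number was between Csa01g013850 and Csa13g019570. It took in 126 clusters of each, 24.9% of those of Csa01g013850 and 13.8% of those of Csa13g019570. Summits of the 2 lists also coincided outside clusters: 61.7% of Csa01g013850 summits in clusters (59.2% to 64.0%) and 59.2% of its lone summits (58.8% to 59.6%) had a Csa13g019570 summit within 100 bp. In the other direction it was 52.6% of Csa13g019570 summits in clusters (50.7% to 54.4%) and 46.9% of its lone summits (46.6% to 47.3%). The intervals overlapped for Csa01g013850 and lay apart for Csa13g019570. They treat summits as independent, although those of the same cluster share their place, and each factor has a single list. They therefore cannot show whether the shares in clusters and at lone summits differ for either factor.

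The largest overlap by share was between Csa08g011090 and Csa13g021450, whose 7 overlapping clusters were 63.6% of the 11 of Csa08g011090 and 16.3% of the 43 of Csa13g021450. At chr11 the cluster of Csa08g011090 ran from 20664753 to 20665363 with 5 summits and that of Csa13g021450 from 20664752 to 20665362 with 4. Also on chromosome 11, the clusters ran from 22987178 to 22987884 for Csa08g011090 and from 22987179 to 22987885 for Csa13g021450, each with gaps of 234 and 472 bp. The summits of the 2 lists fell within 1 bp of each other there, while the median signal was 37.1 for Csa08g011090 and 89.2 for Csa13g021450. Signals of different lists were not scaled to each other.

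The cluster with the highest median signal in each of these lists was at the same place. At chr13:314610-315625 Csa08g011090 had 4 summits with signals of 303.4, 405.6, 202.6 and 211.4, against a median of 33.0 at its lone summits. At chr13:314652-314994 Csa13g021450 had 3 with signals of 608.1, 344.8 and 400.1, against a median of 52.7. High signal did not always come with a high −log10 q there. For these 3 summits of Csa13g021450 it was 98.2, 5.61 and 9.67. In its 5-summit cluster on chromosome 6, where signals were lower, it was 16.7 to 47.0. For the 4 of Csa08g011090 it was 60.8, 80.5, 18.6 and 21.5. Of the summits of Csa13g021450 in clusters, 55.9% (47.5% to 64.0%) had a Csa08g011090 summit within 100 bp, against 26.6% (25.8% to 27.4%) of its lone summits. In the other direction it was 78.9% (63.7% to 88.9%) of Csa08g011090 summits in clusters, against 61.3% (59.9% to 62.6%) of lone ones. These intervals too treat summits of the same cluster as independent, and each factor has a single list. They therefore cannot show whether the shares in clusters and at lone summits differ for either factor of this pair.

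Over all 132 ordered pairs of lists, the share of summits with a partner in the other list was higher in clusters than at lone summits in 55 pairs and lower in 77. The 95% intervals, which treat summits as independent although those of 1 cluster share their place, did not overlap in 18 of the 55 and in 11 of the 77. Of Csa04g023980 summits, 11.4% in clusters (7.52% to 17.0%) and 5.40% at lone summits had a Csa13g019570 summit within 100 bp. Csa13g021450 summits went the other way with Csa06g051300: 1.47% in clusters (0.404% to 5.20%) and 7.25% at lone summits had a partner. With any of the other 11 lists, the share was 68.4% in clusters and 57.5% at lone summits for Csa13g021450, and 21.9% and 22.8% for Csa04g012470, the factor with the most clusters.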

How the data were processed

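DAP-seq peak lists of 20 factors on amplified leaf DNA were used, 1 list per factor. The lists of Csa17g034220 and Csa19g036630 and the Halo control were not analysed here. The submitters' processing notes list, with no roles, HISAT2 2.0.4, Bowtie2 2.3.4.1, Trimmomatic, FastQC and bcl2fastq 2.20.0, and the authors named the lists as events of the GEM peak caller. The sources used here give no genome build, aligner role or read depth for these lists, so depth is unknown. The deposited lists give each peak a score (at most 1000), a signal in an unnamed unit and the −log10 of its p- and q-values. The authors' lists held −log10 q of at least 2. These are the authors' values per peak and were compared only within a list. The score was not used.

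Summits, at the position the authors list (the sources do not say whether it counts from 0 or 1), were chained per chromosome with Python 3.11.15, NumPy 2.4.6 and pandas 2.3.3. Random placement was given by an exact formula for spacings of uniformly placed points, checked on simulated positions. Chromosome length was the largest summit position over the 20 lists. Intervals (exact Poisson for counts, Wilson for shares, 95%; SciPy 1.17.1) cover counting error only. Clusters named are, per list, the one with most summits and the one with the highest median signal, the 5 largest, the joined regions with most factors (ties by summits) and those nearest the linking distance; others named were chosen after their values were seen. The members and lists were chosen with earlier results of these data known. The alternatives tried are given in the closing section. The seed RNA counts were not used.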

Additional observations from a re-analysis of the deposited data

Results flagged for a closer look

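The list of Csa18g003140 has 1089 peaks and so lay outside the comparisons, but it held 6 clusters of 3 summits, where 0.000896 were expected for random placement. Their summits had a median signal of 46.6, against 32.0 at lone summits. The cluster at chr13:314530-314988 overlapped the clusters of Csa08g011090 and Csa13g021450 with the highest median signal. Those at chr4:10610357-10611161 and chr11:12141660-12142486 overlapped regions with clusters of Csa04g012470 and Csa06g004330, at chr4:10609746-10611071 and chr11:12141651-12142493. Clustering at these places was thus not particular to Csa18g003140. The one at chr11:29325557-29326075 overlapped the single cluster of Csa02g060070, another list under 2000 peaks, at chr11:29325554-29326091. Csa10g008930 had 2 clusters, and the 8 short lists had 9 in all.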

How the results depend on the processing

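The number of clusters was 1246 with gaps of at most 250 bp, 22019 with gaps of at most 1000 bp, 782 with at least 4 summits, 1669 in the 50% of each list with higher signal and 2913 at −log10 q of at least 5. Joining summits within 50 bp left 5708. The number of lists with higher signal in clusters was 12 for the strongest summit of a cluster and 1 for the weakest. The strongest or weakest of 3 or more summits tends to lie above or below single summits by construction. These 2 counts therefore cannot show whether signal differed. For Csa02g073390, with medians of 65.9 in clusters and 66.0 at lone summits, the median was 89.3 for the strongest and 51.6 for the weakest. Regions with clusters of several factors numbered 26 at 250 bp and 15 with at least 4 summits, and 160 when 50% of the shorter span had to overlap. Evenly spaced clusters numbered 6 within 5% and 83 within 20%. Copies of the layout numbered 66 within 1 bp, 92 within 5 bp and 24 with at least 4 summits. The tolerances for even spacing, the layout settings and the values without layout copies were chosen after seeing the data.

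The observed-to-expected ratio changed sides for Csa01g013850 (0.927), Csa13g011780 (0.840) and Csa11g072230 (0) at 250 bp, and for Csa02g073390 at 1000 bp (1.51) and in the 5000 highest signals (23.2, from 2 clusters). Csa11g072230 had 0 clusters with at least 4 summits, in the higher-signal 50%, at −log10 q of at least 5 and in the 5000 highest signals, and in the last Csa06g051300 and Csa09g088620 also had 0. Some ratios that kept their side moved by over 1.5 times: in the higher-signal 50% the ratio was 402 for Csa08g011090, 182 for Csa13g021450, 13.6 for Csa04g023980 and 4.72 for Csa09g088620. The median signal in clusters minus that at lone summits changed sign for Csa02g073390 at 1000 bp (1.60), with at least 4 summits (1.05), in the higher-signal 50% (3.35) and in the 5000 highest signals (31.4), for Csa09g088620 at 1000 bp (2.80) and at −log10 q of at least 5 (1.55), and for Csa06g051300 with at least 4 summits (−0.50). Shorter lists and stricter rules leave fewer clusters by construction; the cause of the other changes was not tested. No paired analysis was possible because each factor has 1 list.

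With 1 list per factor, the spread between DAP-seq repeats is unknown. Signal has no unit and depth is unknown, so levels cannot be set across factors. The expected numbers take all positions as equal, and sequence that cannot be mapped was not set aside.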
